A study of Mus musculus with 6 samples.

Results

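The genes described here are those of cytochrome P450 families 1 to 4, followed through 6 subcutaneous mouse hepatoma tumors. Their probes were found by name: every non-control probe whose array gene name begins with Cyp, a family number from 1 to 4, a subfamily letter and a gene number was taken. This gave 82 probes of 56 gene names among 41174 probes of 27845 names. Family 1 held 3 genes on 5 probes, family 2 had 35 genes on 54 probes, family 3 had 6 genes on 8 probes and family 4 had 12 genes on 15 probes. Of the 56 genes, 34 had 1 probe, 18 had 2 and 4 had 3.

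Hepa1-6 is a mouse hepatoma cell line, and here its cells had been inoculated under the skin of female C57Bl/6 mice to form tumors. They were taken at day 10 (tumors 302, 307 and 312) or day 15 (tumors 303, 313 and 318) and put into RNAlater, so both groups carried the same graft and their labels differ only in the day. Each tumor RNA, in the Cy5 dye, shared a 2-colour Agilent array with a common reference in Cy3, which the labels call total RNA from blood of an untreated female C57Bl/6 mouse. The labels do not tie tumors to mice, so p-values measure only the spread between these tumor samples, which may be technical, and no array had the dyes exchanged.

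Cytochrome P450 enzymes are heme proteins of the endoplasmic reticulum that insert an oxygen atom into fatty acids, steroids, vitamins, drugs and pollutants, with electrons supplied by the reductase Por. Families 1 to 3 are best known for drug and pollutant oxidation in the liver, family 1 under control of the aryl hydrocarbon receptor (Ahr), and families 2 and 3 under control of liver factors such as Hnf4a and of the nuclear receptors Nr1i2 and Nr1i3. Family 4 enzymes hydroxylate the far end of fatty acids and of lipid mediators such as leukotrienes.

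Between 51.6% and 57.7% of all probes per array were well above background in Cy5 and 47.1% to 52.4% in Cy3. On the array of tumor 312 an area holding 14.5% of the spots had lost signal, and 15 of the P450 probes lay in it. All day 10 arrays were on 1 slide and all day 15 arrays on another, so slide and day cannot be told apart. Of the hepatocyte and hepatoma marker list, 7 of 11 probes tested were higher in the tumors than in the reference, and its median log2 ratio was 2.36, 2.23 and 2.86 at day 10 and 2.48, -0.26 and 3.25 in tumors 303, 313 and 318, so tumor 313 stood apart from its label's other tumors. The reference went against its blood label in part: 0 of 7 neutrophil marker probes were detected in Cy3 on every array (S100a9 on 5 of 6, S100a8 on 0), while 7 of 12 hepatocyte probes and 7 of 9 erythroid ones were, and all 7 erythroid probes tested were higher in the tumors. It is called the reference here. In such bulk RNA, fewer cells of a type and less RNA per cell cannot be told apart.

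The promoters of the 2 family 1 genes on which the results turn are shown because Ahr, the receptor that controls this family, binds a short core that is spelled GCGTG. Sequences are those of the RefSeq table of build GRCm38.p6, 250 bases upstream of the start site, 5′ to 3′ on the gene's strand, and capitals mark the core on either strand.
Cyp1a1 (chr9:57697363-57697612, plus strand): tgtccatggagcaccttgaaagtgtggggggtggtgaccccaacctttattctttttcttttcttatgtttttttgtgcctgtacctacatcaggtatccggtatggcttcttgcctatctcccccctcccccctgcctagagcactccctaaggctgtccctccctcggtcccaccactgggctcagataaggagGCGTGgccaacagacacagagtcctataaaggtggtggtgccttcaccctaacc
Cyp1b1 (chr17:79715062-79715311, minus strand): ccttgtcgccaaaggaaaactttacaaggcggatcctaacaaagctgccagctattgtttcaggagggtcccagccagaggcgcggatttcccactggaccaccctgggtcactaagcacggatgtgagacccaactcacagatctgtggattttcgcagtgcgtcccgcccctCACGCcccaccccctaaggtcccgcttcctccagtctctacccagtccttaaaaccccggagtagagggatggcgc
The first base of the core lay 54 bases before the start of Cyp1a1, and a core on the opposite strand, read as CACGC, lay 76 bases before that of Cyp1b1. Promoters were found for 45 of the 56 genes, 51 in all. The core was in 10 of them (19.6%), against 28.2% of all 32851 promoters of the same length, so its presence there was no more frequent than elsewhere.

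A second motif, the letters CAAAGTCCA of a well-known binding element of Hnf4a, was in 6 of the 51 promoters (11.8%), against 0.384% of all promoters, both strands searched. They are shown with 10 bases on either side because all of them lay in the close-copy subfamilies 2c and 3a. Capitals mark the element, and strands are those of the genes.
Cyp2c40 (chr19:39812841-39812869, minus strand): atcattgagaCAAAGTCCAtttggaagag
Cyp2c65 (chr19:39060880-39060908, plus strand): gatgttggaaCAAAGTCCActgggaggag
Cyp2c70 (chr19:40187332-40187360, minus strand): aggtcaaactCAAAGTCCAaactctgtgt
Cyp3a11 (chr5:145879945-145879973, minus strand): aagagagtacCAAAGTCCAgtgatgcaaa
Cyp3a16 (chr5:145469804-145469832, minus strand): aagagacgacCAAAGTCCAggtgatgcag
Cyp3a41a (chr5:145720213-145720241, minus strand): aagagacgacCAAAGTCCAggtgatgcag
The flanks of Cyp3a16 and Cyp3a41a were the same over the 29 bases. These genes are close copies of each other, so the sites are not independent of one another. The probe of Cyp2c70 was well above background in Cy5 on 6 arrays, both probes of Cyp2c40 on 5, that of Cyp3a41 on 3, those of Cyp3a11 and Cyp3a16 on 1 each and that of Cyp2c65 on 0. Of the detected genes with the element, Cyp2c40 had its lowest ratio in tumor 313 and Cyp2c70 its highest there. The promoters of Cyp2c29 and Cyp1a1 had no match. None was found for Cyp2s1 and Cyp3a13 either, but promoters were found for only 45 of the 56 genes, and theirs may be missing. A match describes the letters alone.

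Most P450 probes were detected in neither dye, while most genes had a probe above background on some array. In the tumor channel 16 of the 82 probes (19.5%) were well above background on all 6 arrays, against 44.1% of all probes, and 47 (57.3%) were so on no array, against 36.4%. The reference channel gave 15 probes (18.3%) on all 6 arrays, where the share of all probes was 42.9%, and 54 (65.9%) on none, where it was 41.5%. In neither dye on any array were 46 probes, 56.1% against 33.2% of all. By gene, 24 of the 56 had a probe above background in Cy5 on at least 3 arrays, 24 had none in Cy5 on any array and 23 had none in either dye.

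The families differed in how much of them was seen. Of the 15 family 4 probes, 7 (46.7%) were above background in Cy5 on all arrays, near the 44.1% of all probes. The other families had 7 of 54 (family 2, 13.0%), 1 of 5 (family 1) and 1 of 8 (family 3). Subfamily 4f was the most often detected of those with over 2 probes, at 4 of 6 on all arrays in both dyes. Subfamily 2a, whose enzymes oxidise coumarin and steroids in the liver, was at 0 of 5 probes in both dyes, and subfamilies 2g, 2u and 2w were not detected either. In subfamily 2b, the phenobarbital-inducible group, 7 of 8 probes were above background on no array in either dye.

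Several well-known P450 genes had probes detected on few arrays or on none. Neither probe of Cyp1a2, the hepatocyte enzyme that oxidises caffeine, nor either probe of Cyp2b10, the mouse gene most used as a readout of Nr1i3, was above background on any array in any dye. The same held for Cyp2u1, a fatty acid hydroxylase. Cyp3a11, the main drug-oxidising enzyme of subfamily 3a in mouse liver, was above background only on the array of tumor 303, and there in both dyes. Cyp4a14, a fatty acid hydroxylase and target of the nuclear receptor Ppara, was above background in Cy5 on 0 arrays and in Cy3 on 1. Of the 3 probes of its relative Cyp4a10, 1 was above background on all arrays in both dyes and the other two on none.

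**Figure D1:**
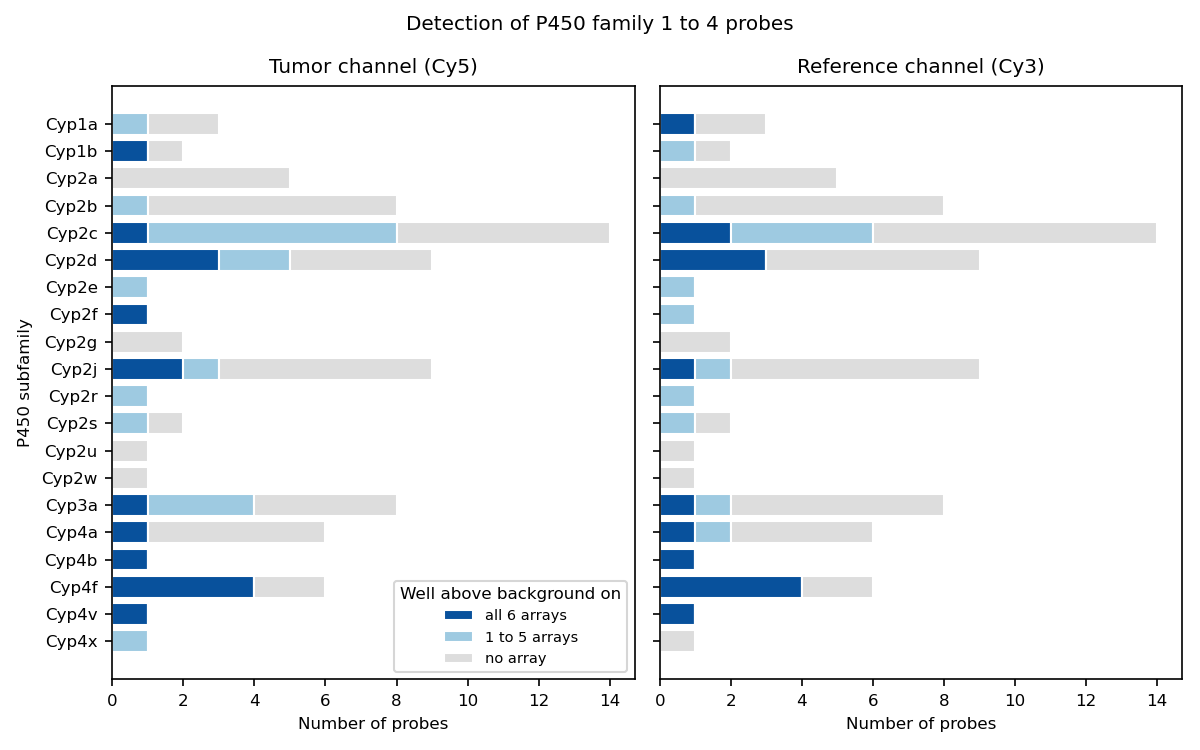
Number of P450 probes (x axis) in each subfamily (y axis) that were well above background on all 6 arrays, on 1 to 5 arrays or on no array, in the tumor channel (left) and the reference channel (right). Grey fills the bars of subfamilies 2a, 2g, 2u and 2w in both dyes, and dark blue those of 4b, 4v and most of 4f.

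The number of P450 probes above background in Cy5 was 26, 25 and 27 in the day 10 tumors 302, 307 and 312 and 28, 21 and 28 in the day 15 tumors 303, 313 and 318. Tumor 313 was the lowest. In Cy3, where every array held the reference, the numbers were 21, 20 and 16 on the day 10 arrays and 22, 23 and 22 on those of day 15. The low reference value was that of the array with the lost area. Of the probes seen on few arrays, 4 (Cyp2b9, Cyp2c37, Cyp2j13 and Cyp3a11) were above background in both dyes on the same 1 or 2 arrays and on no other, which is 4.88% of the P450 probes against 2.84% of all probes.

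The comparison with the reference asks which P450 genes the tumors expressed above or below that RNA. It could be made for 28 probes (25 genes) that passed a filter of detection in Cy5 or in Cy3 on 3 or more arrays, out of 24227 probes tested, and a probe was called when limma's Benjamini-Hochberg adjusted p was under 0.05 and the absolute log2 ratio at least 1. Of the 28 probes, 14 were higher in the tumors, beside 22.1% of all probes tested, and 2 were lower, beside 10.9%. Their median log2 ratio was 0.92, beside 0.10 over all probes tested, and 22 of 28 lay above 0 (78.6%, against 53.7%). The filter itself can raise these shares. Of the 28 probes, 27 passed it in Cy5 and 20 in Cy3, against 23068 and 20930 of all probes. Those that passed in Cy5 alone were Cyp1b1, Cyp2d10, Cyp2d26, Cyp2e1, Cyp2f2, Cyp2j9, Cyp3a41 and Cyp4x1. All had a mean ratio above 0, and Cyp1b1, Cyp2e1, Cyp2f2 and Cyp2j9 are among the 14, while Cyp2c44 alone passed only in Cy3. The counts and the median cannot be read apart from the filter. By family, 1 of 2 probes was higher in family 1, 9 of 16 in family 2 and 4 of 8 in family 4, and the 2 lower probes were 1 of 16 in family 2 and 1 of 2 in family 3. The split depended on the scaling: centring each array on its median without loess moved the median of all probes to -0.41. It gave 10 P450 probes higher, 9 of them among the 14 given first, and 3 lower (17.3% and 28.4% of all probes). With the scanner software's processed signals 14 were higher and 5 lower (23.8% and 24.5% of all), and 10 of those 14 were among the 14 given first.

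In family 1 the tumors were higher than the reference at Cyp1b1, and Cyp1a1 was not called. Cyp1b1, which oxidises estrogens and aromatic pollutants mostly outside the liver, had log2 ratios of 3.80, 3.53 and 3.26 in the day 10 tumors 302, 307 and 312 and of 3.95, 4.17 and 3.85 in the day 15 tumors 303, 313 and 318. All 6 tumors lay far above the reference and within 1 log2 unit of each other. The mean was 3.76 ± 0.32 (SD, n = 6; SE 0.094), with an adjusted p of 4.0e-07 from limma. Its reference signal was well above background on the arrays of 302 and 313 alone, so the size of the ratio leans on dim Cy3 spots (4.39 with processed signals), and its second probe was detected in neither dye.

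Cyp1a1, which oxidises polycyclic aromatic hydrocarbons and is the textbook target of Ahr, showed log2 ratios of 0.14, 0.54 and 0.16 in tumors 302, 307 and 312 and of 0.07, -4.11 and 0.58 in tumors 303, 313 and 318. Tumor 313 alone was low, and the other 5 lay close to the reference. In tumor 313 the Cy5 spot was not well above background, so its ratio there marks a limit of detection. Over 6 tumors the mean was -0.44 (SE 0.59) with an adjusted p of 0.51, and without tumor 313 it turned to 0.30, under the size required for a call. With processed signals the mean was -1.22. The receptor Ahr itself was lower in the tumors than in the reference (log2 ratio -1.42, SE 0.15, adjusted p 2.0e-04), lowest in tumor 313 at -2.42 against -1.56 to -1.01 in the other 5.

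**Figure D2:**
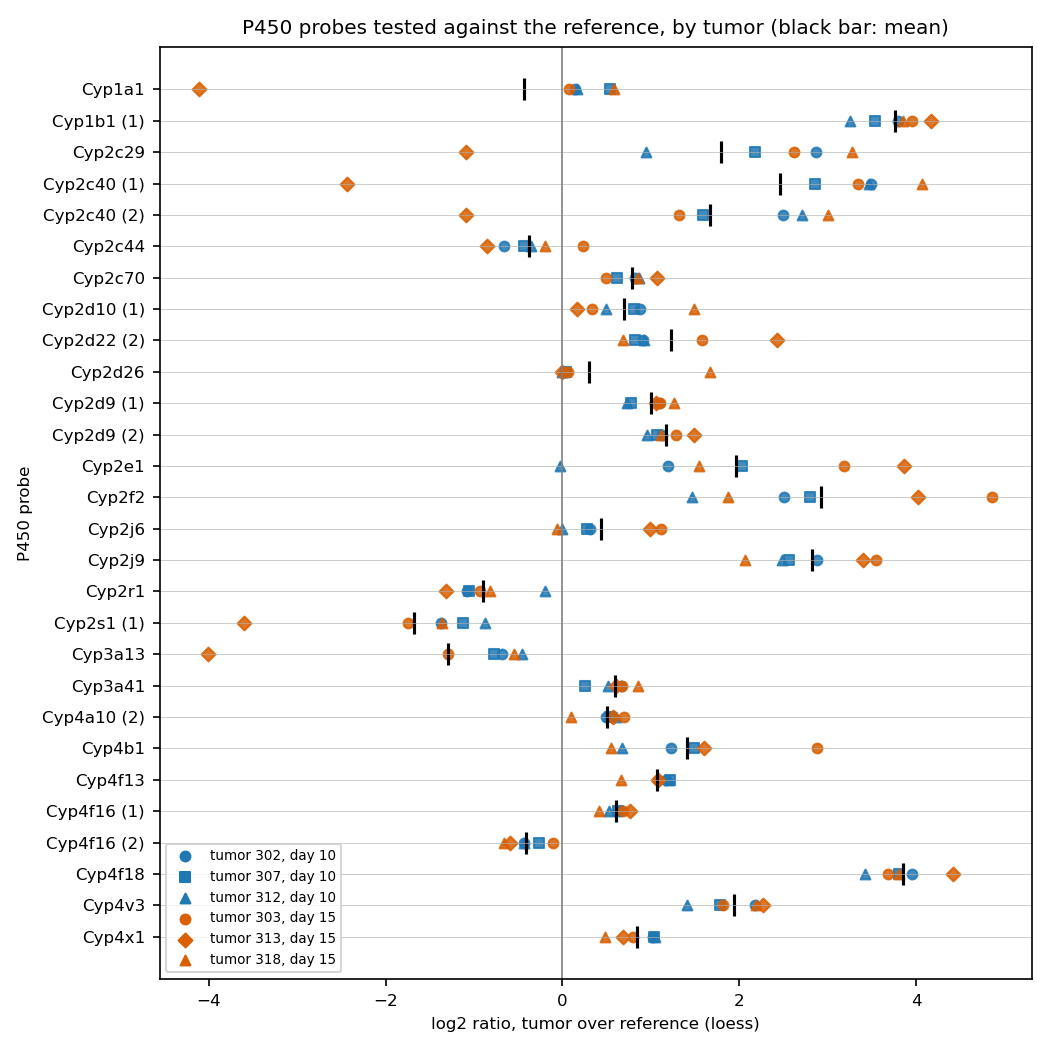
Log2 ratio of tumor over reference (x axis) in each of the 6 tumors for the 28 P450 probes tested (y axis), with the mean as a black bar. Blue symbols are day 10 and orange symbols day 15, and numbers in brackets tell probes of a gene apart. The orange diamonds of tumor 313 lie far to the left at Cyp1a1, both Cyp2c40 probes, Cyp2c29, Cyp2s1 and Cyp3a13, and on the right at Cyp2e1 and Cyp2d22.

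Family 2 had the most probes tested and the most above the reference, 9 of 16, a share near the 4 of 8 of family 4. Cyp2f2, known from the airway epithelium, where it oxidises naphthalene, had log2 ratios of 2.50, 2.80 and 1.46 in tumors 302, 307 and 312 and of 4.86, 4.02 and 1.87 in tumors 303, 313 and 318. Tumors 303 and 313 were the highest, while 318 lay among the day 10 tumors. The mean was 2.92 ± 1.30 (SD, n = 6), with an adjusted p of 4.8e-04. The reference was above background on the arrays of 303 and 313 alone, and with processed signals the mean was 4.08.

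Cyp2e1, which oxidises ethanol and other small solvents, showed ratios of 1.19, 2.03 and -0.03 in tumors 302, 307 and 312 and of 3.18, 3.87 and 1.55 in tumors 303, 313 and 318 on the log2 scale. Tumors 303 and 313 were again the highest. The value of tumor 312 comes from a spot in its lost area that was not above background in either dye. The mean was 1.97 ± 1.41 (SD, n = 6; adjusted p 0.0022), with the reference above background on 1 array, that of tumor 313, and it was 2.99 with processed signals.

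Cyp2j9, a member of the subfamily that epoxidises arachidonic acid, was above background in Cy5 on all 6 arrays and in Cy3 on none. By a bound on the reference signal it was at least 4.51-fold higher in the tumors, with an adjusted p of 3.3e-05 in the fit. Such a bound sets the mean tumor signal against the higher of the dim spot and the dimmest probe detected on each array, per dye. It is open to dye bias and is not strict, since undetected spots could be brighter than that dimmest probe. For probes detected in Cy5 on fewer than 6 arrays, the mean also takes in undetected Cy5 spots. In Cy3 on the array of tumor 312, undetected Cyp2d26 was at a log2 signal of 7.43 and the dimmest detected probe at 6.88. Cyp2j6, of the same subfamily, had log2 ratios of 0.31, 0.28 and 0.00 in tumors 302, 307 and 312 and of 1.11, 0.99 and -0.07 in tumors 303, 313 and 318. Its mean of 0.44 (SE 0.16, adjusted p 0.042) stayed under the size required for a call, and tumors 303 and 313 were once more on top.

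The subfamily 2c genes Cyp2c29 and Cyp2c40, liver and gut enzymes that act on arachidonic acid and drugs, were called higher than the reference with a wide spread. The first probe of Cyp2c40 had log2 ratios of 3.50, 2.85 and 3.47 in tumors 302, 307 and 312 and of 3.34, -2.44 and 4.06 in tumors 303, 313 and 318. Its second probe gave 2.49, 1.59 and 2.71, then 1.31, -1.09 and 3.01, and Cyp2c29 gave 2.86, 2.18 and 0.94, then 2.62, -1.09 and 3.28, in the same order. In all of them 5 tumors lay above the reference and tumor 313 below it, where their Cy5 spots were not well above background.

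The means were 2.47 ± 2.43, 1.67 ± 1.50 and 1.80 ± 1.63 (SD, n = 6), with limma adjusted p of 0.027, 0.017 and 0.025. These calls depended on which tumors were included. Without tumor 313 all 3 rose, to 3.49 and 2.21 for the Cyp2c40 probes and 2.47 for Cyp2c29 (adjusted p 2.3e-05, 0.0010 and 6.5e-04). Without 302, 307, 303 or 318 in turn, Cyp2c29 had an adjusted p of 0.074, 0.064, 0.084 and 0.075, and the first Cyp2c40 probe lost its call without 302, 307, 312, 303 or 318 (0.066, 0.055, 0.063, 0.091 and 0.081). The second Cyp2c40 probe lost its call without 303 (0.054). With the scanner software's processed signals the adjusted p of the 3 probes was 0.086, 0.066 and 0.076. On the array of tumor 312, the lost area covered the spots of Cyp2c29 and of the first Cyp2c40 probe. Close copies within subfamily 2c may share signal, which was not tested because no probe sequences were used.

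Cyp2c70, which makes the muricholic bile acids of mice, was above background in Cy5 in all 6 tumors, with log2 ratios between 0.49 and 1.07. Its mean of 0.79 (SE 0.09, adjusted p 3.0e-04) was under the size required. Cyp2c44 was above background in Cy5 in tumor 303 alone but in Cy3 on 5 arrays, with a mean of -0.38 (adjusted p 0.043).

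In subfamily 2d, Cyp2d9, a testosterone hydroxylase of mouse liver, was called higher on both its probes. Its second probe had log2 ratios of 1.12, 1.07 and 0.96 in tumors 302, 307 and 312 and of 1.29, 1.49 and 1.12 in tumors 303, 313 and 318. The tumors differed little here, with a mean of 1.17 ± 0.19 (SD, n = 6; adjusted p 2.3e-05), and the first probe gave 1.002 ± 0.21. Since both are near the size required, they fell under it with median centring (0.93 and 0.90), and the first also without 302 (0.95) or 318 (0.97).

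Cyp2d22, a drug-oxidising enzyme also found outside the liver, had log2 ratios of 0.91, 0.82 and 0.92 in tumors 302, 307 and 312 and of 1.58, 2.42 and 0.69 in tumors 303, 313 and 318. Tumor 313 was the highest and 318 the lowest, so the day 15 tumors lay on both sides of the day 10 tumors. The mean was 1.22 ± 0.66 (SD, n = 6; adjusted p 0.0014) on 1 of its 3 probes, and the other two were not detected. The first Cyp2d10 probe was above background in Cy5 on 4 arrays and in Cy3 on none, and its second probe was detected in neither dye. By the bound the first probe was at least 1.59-fold higher. It was not called: its log2 ratio of 0.70 (limma adjusted p 0.010) was under the size required. The probe of Cyp2d26 was above background in Cy5 on 3 arrays and in Cy3 on none. Cyp2d26 was not called (adjusted p 0.25): its log2 ratio was 1.67 in tumor 318 and between -0.01 and 0.07 in the other 5.

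The genes below the reference were few. Cyp2s1, an enzyme of epithelia outside the liver, had log2 ratios of -1.37, -1.12 and -0.88 in tumors 302, 307 and 312 and of -1.75, -3.60 and -1.36 in tumors 303, 313 and 318. All lay below the reference, and tumor 313 the furthest. The mean was -1.68 ± 0.98 (SD, n = 6; adjusted p 0.0014), and the value of tumor 312 comes from a spot in its lost area that was above background in neither dye. Cyp2r1, which hydroxylates vitamin D in the liver, had a mean of -0.90 (SE 0.14, adjusted p 0.0011) and missed the size required, with -0.20 in tumor 312, again from the lost area, and -1.32 to -0.82 in the other tumors. Without tumor 312 it was called lower at -1.05.

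Cyp3a13, the subfamily 3a gene of mouse gut and liver that was detected on every array in both dyes, had log2 ratios of -0.68, -0.77 and -0.45 in tumors 302, 307 and 312 and of -1.30, -4.02 and -0.55 in tumors 303, 313 and 318. Each was below the reference, and tumor 313 stood far below the rest. The mean of -1.30 ± 1.36 (SD, n = 6; adjusted p 0.025) rested on that tumor for its size: without it the mean was -0.78, and the adjusted p rose to 0.060 without 302 and 0.064 without 307. Cyp3a41 was above background in Cy5 on 3 arrays and in Cy3 on none, at least 1.27-fold higher (adjusted p 5.8e-04, under the size required in the fit).

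In family 4, 1 gene was far above a reference that was itself detected on every array. Cyp4f18, which breaks down leukotrienes in myeloid cells, had log2 ratios of 3.95, 3.81 and 3.43 in tumors 302, 307 and 312 and of 3.68, 4.42 and 3.81 in tumors 303, 313 and 318. The days overlapped and all 6 tumors lay within 1 unit, at a mean of 3.85 ± 0.33 (SD, n = 6), which is 14.4-fold over the reference (adjusted p 1.1e-06). Of the macrophage marker list, 8 of 9 probes were also higher in the tumors (median 4.48), as were 3 of 5 neutrophil probes and 10 of 12 fibroblast probes (median 4.07), and their part in the P450 ratios was not tested.

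Cyp4v3, a fatty acid hydroxylase found in many tissues, had log2 ratios of 2.18, 1.79 and 1.41 in tumors 302, 307 and 312 and of 1.82, 2.27 and 2.19 in tumors 303, 313 and 318. The mean was 1.94 ± 0.33 (SD, n = 6; adjusted p 1.9e-05), with the lowest value on the array whose lost area covers the spot. Cyp4b1, best known from the lung, where it oxidises fatty acids and furans, was more uneven, at 1.22, 1.49 and 0.67 in tumors 302, 307 and 312 and 2.88, 1.60 and 0.55 in tumors 303, 313 and 318. Tumor 303 was the highest and 318 the lowest, so the day 15 tumors spanned those of day 10. Its mean of 1.40 ± 0.84 (SD, n = 6; adjusted p 0.0035) fell under the size required with median centring (0.70).

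The leukotriene and fatty acid hydroxylase Cyp4f13 had log2 ratios of 1.17, 1.21 and 1.20 in tumors 302, 307 and 312 and of 1.09, 1.08 and 0.66 in tumors 303, 313 and 318. Tumor 318 was apart from a tight set of 5. The mean of 1.07 ± 0.21 (SD, n = 6; adjusted p 4.7e-05) fell under the size required with median centring (0.50), with processed signals (0.77) and with no background correction (0.99). The 2 probes of Cyp4f16 disagreed in sign: the first had a mean of 0.61 and the second of -0.42, neither of them called, and with median centring the first was at -0.04. The second was called lower, at -1.02, with processed signals. The detected probe of Cyp4a10 had ratios between 0.10 and 0.69 (mean 0.50, adjusted p 0.0024, under the size required). Cyp4x1 was above background in Cy5 on 5 arrays and in Cy3 on none, at least 1.53-fold higher by the same kind of bound. It was not called, with a log2 ratio of 0.85, under the size required.

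Tumor 313 was the clearest departure among the 6 tumors. Of 27 P450 probes compared across them, 6 were lowest in tumor 313 by at least 1 log2 unit from the next tumor, beside 2.89% of all 22871 probes. They were Cyp1a1, Cyp2c29, both Cyp2c40 probes, Cyp2s1 and Cyp3a13, with gaps of 4.18, 2.03, 5.29, 2.40, 1.85 and 2.72. In tumor 313 the Cy5 spots of Cyp1a1, Cyp2c29 and both Cyp2c40 probes were not well above background, so their gaps and the Cy5 differences given next depend on how background was corrected. In tumor 312 there was 1 such probe (1.86% of all probes), and in the other tumors 0.

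For 5 of the 6 probes the difference lay in the tumor dye. Cyp1a1 was lower in tumor 313 than in the mean of the other 5 by a log2 difference of -4.29 in the normalised Cy5 signal, against 0.12 in Cy3. Cyp3a13 differed by -3.04 in Cy5 and 0.23 in Cy3, and the first Cyp2c40 probe by -5.70 and 0.18. The second Cyp2c40 probe differed by -3.46 and -0.14 and Cyp2c29 by -3.22 and 0.24. Cyp2s1 was the exception in this sum, at -0.53 and 1.77, since its spot on the array of tumor 312 had lost both dyes. Outside tumor 312 its log2 Cy5 signal was 12.3 in tumor 313 and 14.06 to 14.74 in the others, with Cy3 between 15.81 and 15.89 on all 5 arrays.

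Not every P450 gene was low in tumor 313. Against the mean of the other 5 tumors, Cyp2e1 was above by 2.28 log2 units, Cyp2d22 by 1.44, Cyp4f18 by 0.68, Cyp1b1 by 0.50 and Cyp4v3 by 0.40. The low set thus held 1 gene of family 1, genes of subfamilies 2c and 2s and 1 of family 3, and no gene of family 4.

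**Figure D3:**
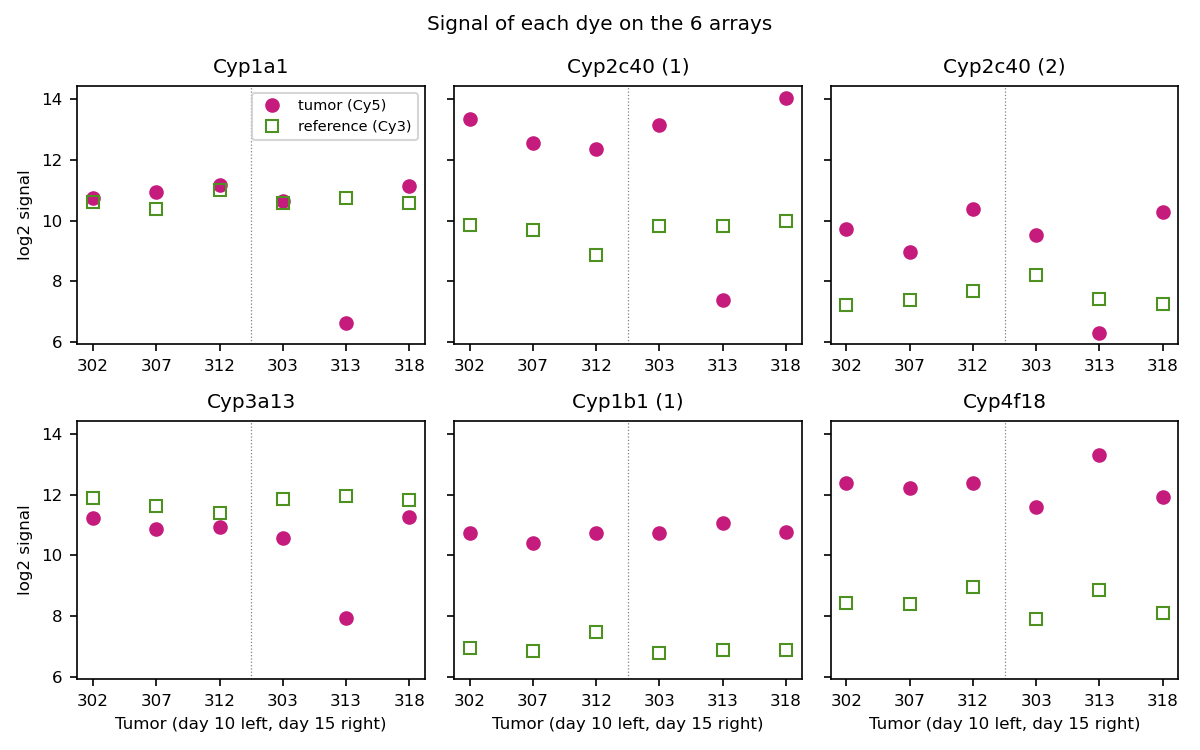
Log2 signal (y axis) of the tumor dye (filled circles) and of the reference dye (open squares) on the array of each tumor (x axis, day 10 left and day 15 right) for 6 P450 probes. At Cyp1a1, Cyp2c40 and Cyp3a13 the filled circle of tumor 313 drops while the reference square stays, and at Cyp1b1 and Cyp4f18 it does not drop.

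Regulators of these genes did not move as a group in tumor 313, though some liver factors were low there. The list of receptors and regulators had 17 genes on 28 probes, of which 25 were tested: 3 were higher than the reference (Cebpa 1.91, Rxra 1.59 and Nfe2l2 1.46) and 4 lower, among them Hnf4a (-1.92), Ahr (-1.42) and Nr1h4 (-1.02). Other probes of some of these genes differed and were not called: the second Rxra probe was at -0.41, the other 3 of Nfe2l2 at -0.25, 0.36 and 0.20, the second of Cebpa at 0.87 and the other tested Hnf4a probe at -0.34. The median of the list was -0.25, and by tumor it was -0.22, -0.06 and 0.01 in 302, 307 and 312 and -0.20, -0.30 and 0.23 in 303, 313 and 318. Foxa2, a pioneer factor of liver genes, had a log2 ratio of -5.71 in tumor 313 against -0.48 to 0.00 in the other 5. The called Hnf4a probe was at -3.60 against -1.83 to -1.13 (the other tested one at -0.37, like the other tumors), and Foxa3 at -3.75 against -0.80 to -0.20. Cebpa was highest in tumor 313, at 2.92, as were Rxra on its called probe, at 2.11, and Nr1i3, at 1.22. Nr1i2 was detected in neither dye.

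The summed Cy5 signal of the hepatocyte and hepatoma marker probes was 57630 in tumor 313 and 644500 to 991400 in the other tumors, and none of the 10 genes with a probe was undetected over all arrays. Not all of the list fell: in tumor 313 Gpc3 was at 5.13 (4.73 to 5.48 in the others), Trf at 2.13 (2.14 to 2.60) and Tat at 1.03, its highest. The summed signal was low in the same tumor as the 6 P450 probes, and its part in the result was not tested.

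A second pattern across tumors, noticed after the values were seen, was shared by fat markers and by other marker lists. Tumors 303 and 313 were the 2 highest at 9 of the 27 P450 probes (Cyp1b1, Cyp2d22, Cyp2d9, Cyp2e1, Cyp2f2, Cyp2j6, Cyp2j9, Cyp4b1 and Cyp4f16), beside 18.2% of all probes. At 5 of these (Cyp2f2, Cyp2j6, Cyp2j9, Cyp4b1 and Cyp4f16) tumors 312 and 318 were also the 2 lowest, beside 8.56% of all probes. Taken alone, 312 and 318 were the 2 lowest at 5 of 27 probes, a share near the 17.8% of all probes. The second Cyp4f16 probe was low in 313 (-0.59), and the first Cyp2d9 probe was highest in 318 (1.26), with 313 at 1.06. The adipocyte marker list had median log2 ratios of 3.20, 2.66 and 1.01 in tumors 302, 307 and 312 and of 4.92, 5.40 and 1.27 in tumors 303, 313 and 318, the same 2 tumors highest and the same 2 lowest. Its summed Cy5 signal ran from 53110 in tumor 318 to 674100 in tumor 313, 6 of 7 probes tested were higher than the reference, and none of the 6 genes was undetected on all arrays. The macrophage list had the same 2 tumors highest and the same 2 lowest (4.36, 4.38 and 4.06, then 4.84, 4.93 and 4.28, in the same order). Tumors 303 and 313 were also the 2 highest in the medians of the endothelial, B cell, erythroid and skin epithelium lists. They were not in those of the hepatocyte, neutrophil, fibroblast and skeletal muscle lists. The part of any of these markers in the P450 values was not tested.

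**Figure D4:**
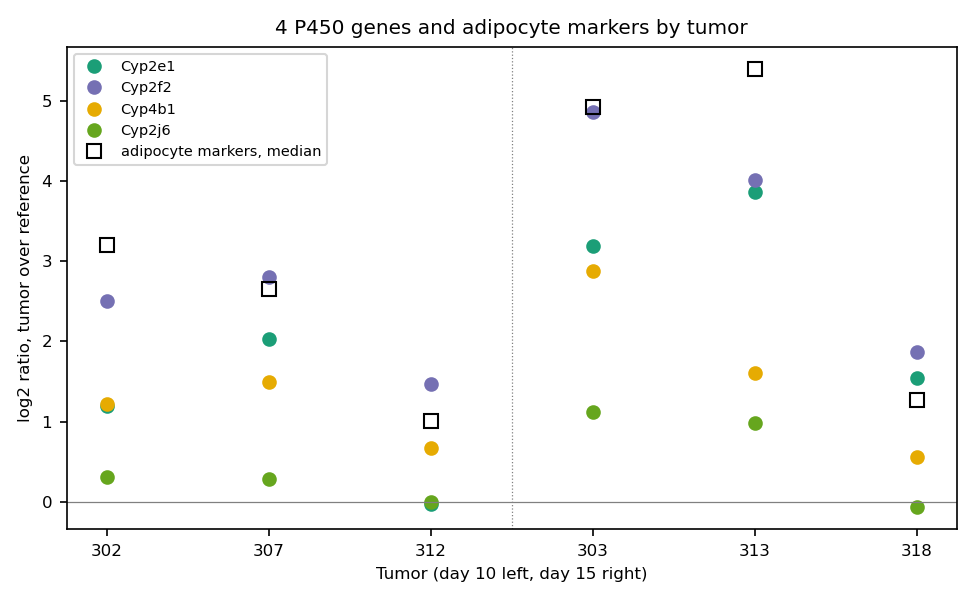
Log2 ratio of tumor over reference (y axis) of Cyp2e1, Cyp2f2, Cyp4b1 and Cyp2j6 (filled circles) and the median of the adipocyte marker probes (open squares) in each tumor (x axis, day 10 left and day 15 right). All of them are highest in tumors 303 and 313. In 312 and 318 all but Cyp2e1 are at their lowest: Cyp2e1 in tumor 318 (1.55) lies above tumor 302 (1.19), and in tumor 312 it was read from a spot in the lost area.

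Between day 10 and day 15 no P450 gene changed by the test. Of 27 probes (24 genes) tested among 23067, 0 were higher at day 15 and 0 lower at an adjusted p under 0.05, beside 0.00867% and 0.0347% of all probes, and the smallest adjusted p was 0.999964. At an unadjusted p under 0.05, 2 were higher, beside 2.19% of all probes, and 1 was lower, beside 1.34%. The median change was 0.03, beside 0.02 over all probes, with a range from -1.62 to 1.80. The values of the days did not overlap at 3 of the 27 probes, Cyp1b1, Cyp4f13 and Cyp4x1, beside 8.62% of all probes.

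Cyp2e1 had the largest difference, 1.80 log2 units higher at day 15 (SE 0.73, unadjusted p 0.045 from limma). Day 10 tumors lay between -0.03 and 2.03 and day 15 tumors between 1.55 and 3.87, so the days overlapped. With the lost area of tumor 312 left out the difference was 1.25 (unadjusted p 0.13). Cyp1b1 was higher at day 15 by 0.47 (SE 0.19, unadjusted p 0.045 from limma). In the tumor channel alone its difference was 0.28 (unadjusted p 0.24 from limma), and its ratio difference was 0.33 without tumor 312. On the array of tumor 312 its undetected Cy3 spot was at a log2 signal of 7.49, against 6.80 to 6.95 on the others. Cyp4x1, an enzyme best known from brain, differed by -0.38 (SE 0.14, unadjusted p 0.034). None of these passed the adjustment.

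The other members of smallest p were Cyp2s1 (-1.11, unadjusted p 0.094), Cyp2d9 (0.28, p 0.13) and Cyp2f2 (1.33, p 0.14). Without tumor 313 Cyp2s1 was at -0.43, and Cyp2f2 was at 0.69 without 303 and 2.18 without 318. The differences of Cyp1a1 (-1.43), Cyp3a13 (-1.32) and the Cyp2c40 probes (-1.62 and -1.19) came from a day 15 group that holds tumor 313, and without it those of Cyp1a1 and of the first Cyp2c40 probe turned to 0.04 and 0.43, while Cyp3a13 was at -0.29 and the second Cyp2c40 probe at -0.10. Skeletal muscle markers were lower at day 15 on 5 of 7 probes tested, and their part in the P450 values was not tested.

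**Figure D5:**
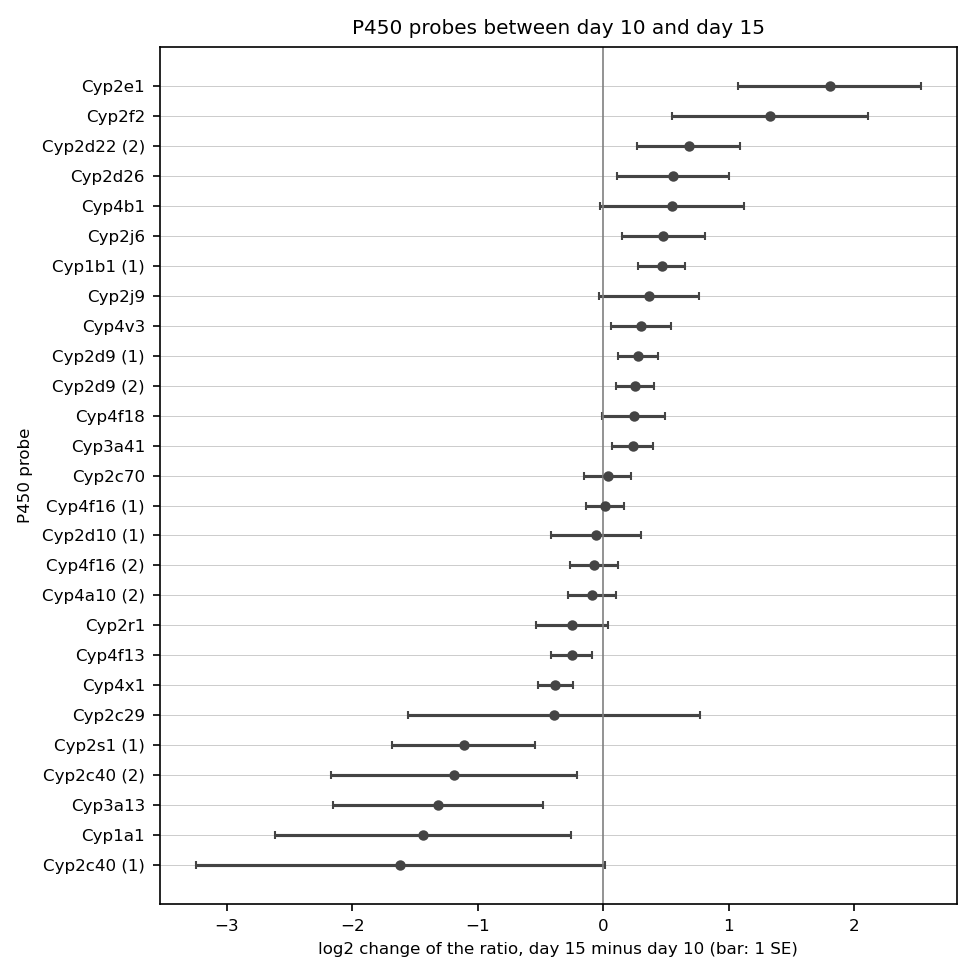
Difference in log2 ratio between day 15 and day 10 (x axis; bars are 1 SE) for the 27 P450 probes tested (y axis), in order of size. The points run from -1.62 at the first Cyp2c40 probe to 1.80 at Cyp2e1, and none passed the adjusted threshold.

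The dyes were also compared between the days on their own. In the reference channel, where the same RNA by label was on every array, 0 of 20 P450 probes passed an adjusted p under 0.05 in limma, and 0 an unadjusted one, beside 1.27% of all probes. In the tumor channel alone 0 of 27 passed after adjustment and 1 before, Cyp4x1 at -0.70 (unadjusted p 0.024), beside 2.68% of all probes.

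The enzymes that work with P450s gave the setting. Among redox partners and heme supply genes, 3 of 10 probes were higher in the tumors and 1 lower. The heme-degrading Hmox1 was at 3.60 and the heme synthesis enzyme Alas1 at 1.97 and 1.76 on its 2 probes. The electron carrier Cyb5b was at -1.24 on its called probe and at -0.56, not called, on its other. The reductase Por was at 0.19 (log2 ratio, adjusted p 0.094). Of the conjugation and epoxide enzymes, 5 of 14 probes tested were higher, namely Sult1a1 at 5.21 (with the reference above background on 1 array), Gsta3 at 2.51 and 2.13 and Gstm1 at 2.59 and 1.99, and 1 was lower, Gsta4 at -1.11. The classical Ahr target Nqo1 was at 0.16. Aldh3a1, Gsta1, Gsta2 and Ugt2b5 were not above background in Cy5 on any array.

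Gsta3, a glutathione transferase, had the lowest p between the days in these lists. On the probe outside the lost area, its log2 ratios were 1.30, 1.05 and 1.89 in the day 10 tumors, all under the 2.97, 2.32 and 3.28 of day 15. The difference of 1.44 had an unadjusted p of 0.0034 and an adjusted p of 0.77 in limma, so it was not called. Ephx2, the epoxide hydrolase that acts on the lipid products of subfamilies 2c and 2j, was at 0.72 in tumor 303 and 0.69 in 313 and between -0.98 and -0.52 in the other 4, the tumors split as at Cyp2j6. In the P450 families above 4, 3 of 14 probes tested were higher (Cyp26b1, which degrades retinoic acid, at 4.78, Cyp7b1 at 1.98 and Cyp27a1 at 1.25) and 3 lower, all of Cyp51 of sterol synthesis (-2.28, -1.90 and -1.66). The liver enzymes of bile acid synthesis Cyp7a1 and Cyp8b1 were detected in neither dye. Between the days 0 probes of these 4 lists were called.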

How the data were processed

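RNA of 6 tumors was read on 6 2-colour arrays with a common reference. Per the submitters' processing notes, spots were read with Agilent Feature Extraction 9.1.3.1. The deposited scanner files give mean and local background intensity per spot and dye, not normalized, and processed intensity, per the file headers corrected for background and dye by that software. The authors' deposited value table holds log10 ratios, and it differed by 0 from the log10 ratio of the scanner files. Its column medians were 0. Detection and outlier flags were used as deposited. The genome build of the array design is not given in the sources used here.

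In limma 3.58.1 (R 4.3.3), mean intensities were corrected with normexp (offset 50) and loess within arrays, and spots of a probe averaged, without 1639 control spots and 70 to 157 outlier spots per array. Log2 ratios were fitted with day as group (lmFit, eBayes, 2-sided, Benjamini-Hochberg over all probes). A probe entered the test against the reference if detected (well above background) in Cy5 or Cy3 on 3 or more arrays, and that between days if so in Cy5. Signals of 1 dye were scaled with Aquantile after loess, and quantile-normalised where tested alone. The test against the reference leaves out the reference's own spread. The number of arrays limits the precision. No P450 probe was saturated. Array names of 71 P450 probes were matched to RefSeq by accession and 11 by symbol; 7 more probes are family 1 to 4 genes under RefSeq names alone and were not members.

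Genes named were those called (up to 5 per family and direction), the 6 of smallest p between days, a fixed list, and list genes named in a count; further names were chosen after their values were seen. Members and lists were chosen with earlier results of these data known. Scripts were tested on simulated data. Alternatives were other background correction and scaling, filters, the lost area left out, 1 dye alone, slide position as a block, genes by brightest probe, and each tumor left out.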

Additional observations from a re-analysis of the deposited data

Results flagged for a closer look

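Each probe of a named P450 gene above background in Cy5 on at least 3 arrays was looked at for a tumor far from the other 5, over all 6 tumors because a day holds 3. Such a rule marks about 1 in 20 by chance, and 6 of 23 probes were marked. In tumor 313 these were Cyp1a1 at a log2 ratio of -4.11 (nearest other tumor 0.07), the first Cyp2c40 probe at -2.44 (2.85), Cyp2s1 at -3.60 (-1.75) and Cyp3a13 at -4.02 (-1.30). In tumor 318 they were Cyp4a10 at 0.10 (0.49) and Cyp4f13 at 0.66 (1.08).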

How the results depend on the processing

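No paired analysis was possible because the days share no tumor numbers; position on the slide, used as a block, is not a replicate number. The 14 probes higher than the reference were 10 to 14 under other scaling, background or filters, 11 to 14 with 1 tumor left out and 21 with no minimum size. The 2 lower probes were 5 with processed signals, with the authors' value table and with no minimum size, and 1 with detection required on all 6 arrays. With 1 tumor left out they were 1 (without 302, 307 or 313) to 3 (without 312). The 16 probes detected in Cy5 on all arrays became 30 with the weaker positive-and-significant flag, 27 on at least 3 arrays and 16 to 20 with 1 array left out. In Cy3, 15 became 25 with that flag and 15 to 19 with 1 array left out. The counts between days and in the reference channel stayed at 0. Signs turned for the ratio of Cyp1a1 without 313 (0.30; range with 1 tumor left out -0.87 to 0.30) and of the first Cyp4f16 probe with median centring (-0.044). They turned for the day differences of Cyp2s1 (1.57) and Cyp2d9 (-0.0086 and -0.15) in the tumor channel alone. The Cyp2s1 spot of tumor 312 lay in the lost area, at a log2 Cy5 signal of 6.35 against 14.52 in 302 and 14.74 in 307. Without 313 the signs of day differences turned for Cyp1a1 (0.044, range -2.30 to 0.044) and the first Cyp2c40 probe (0.43, range -2.82 to 0.43). The cause was not tested. Of the named values against the reference, 242 kept direction and side of the threshold, 31 lost and 7 gained a call, and 2 turned sign; between days 154 kept both and 5 turned.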
